A study of Citrus sinensis with 48 samples.

Results

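Carrizo citrange is a hybrid of Poncirus trifoliata and Citrus sinensis that is grown as a citrus rootstock. Leaves of this genotype under combined water stress and high light (WS+HL-Car, 3 libraries) were compared with leaves of untreated control plants of the same genotype (CT-Car, 3 libraries). These 6 libraries were chosen by their sample titles out of 48 RNA-seq libraries of citrus leaf, which cover 16 groups of 3 libraries: Carrizo and Cleopatra mandarin (Citrus reshni), each in control conditions (CT), under water stress (WS), high light (HL) or heat stress (HS), and under all combinations of the 3 stresses. The leaves under each single stress, WS-Car and HL-Car, and the Cleopatra groups CT-Cleo and WS+HL-Cleo, each with 3 libraries, served as further references. No heat treatment was applied in any of these 6 groups, according to the labels. Light intensity, degree and length of water stress, temperature, plant age and the number of plants in each library are not stated in the sources. The titles number the libraries as biological replicates without naming plants, so the p-values measure the spread between these samples.

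A leaf that loses water closes its stomata, largely through the hormone abscisic acid, and then takes up less carbon dioxide. Light that cannot be used in carbon fixation is dissipated as heat or passed to oxygen, and photoprotective proteins of the thylakoid membrane, antioxidant enzymes and the repair of photosystem II limit the damage. Closed stomata also reduce evaporative cooling, and misfolded proteins in a leaf cell are bound by heat shock proteins, whose genes are switched on by heat stress transcription factors. Water loss itself is met with late embryogenesis abundant (LEA) proteins, which are hydrophilic protectants, and with compatible solutes such as raffinose family sugars and proline.

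Each of the 6 libraries held between 43301496 and 53814403 counts over 30136 annotated genes, with 21925 to 22687 genes detected. Ribosomal RNA took 0.457% to 1.36% of the counts and genes of the chloroplast genome 0.0780% to 0.123%. The lowest correlation of log2 CPM (counts scaled to the same library size) between libraries of the same group was 0.984, and all 48 libraries were closest to their own group. Columns of CT-Car replicates 1 and 3, WS+HL-Car replicate 1, HL-Car replicate 1 and CT-Cleo replicate 3 carry a mark ("bis") that the labels do not explain. The mark splits both main groups, so that comparisons within marked and within unmarked libraries were possible. Each of them rests on 1 library on one side, because CT-Car has 1 unmarked library and WS+HL-Car 1 marked library. No library of WS-Car or WS+HL-Cleo carries it, so it is unbalanced in their comparisons. Within WS+HL-Car, CT-Car and HL-Car, replicates with the same mark were closer to each other. The chi-square per gene between 2 libraries of WS+HL-Car was 4.67 with the same mark and 15.97 and 16.05 with different marks. It was 16.55 against 35.71 and 63.56 in CT-Car, and 19.56 against 80.4 and 105.8 in HL-Car. In WS-Car, where no library carries the mark, the pairs stood at 17.98, 7.35 and 9.86. Leaf mesophyll markers, such as the small subunit of Rubisco and chlorophyll a-b binding proteins, were among the most abundant transcripts of the controls, as a leaf label requires. Counts were made against a Citrus sinensis annotation, and whether the alleles of both parents of the hybrid were counted alike was not tested. The deposited table gives no positions, so genes are named here by symbol and description.

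Of 23721 genes tested, 6842 were higher and 7886 lower in WS+HL-Car than in CT-Car at an edgeR adjusted p below 0.05, which is 62.1% of the genes (28.8% higher and 33.2% lower). At least 2-fold changes were found for 2132 higher genes (8.99%) and 4365 lower genes (18.4%). The median log2 fold change over all tested genes was -0.05. The counts given below for lists of genes are to be read beside these percentages. They cover the members that passed the filter on low counts, which were 29 of 32 small heat shock protein, 22 of 29 LEA, 41 of 57 terpene synthase and 82 of 111 NAC genes, and all or nearly all members of the chloroplast lists. For each gene named in the text as higher or lower than CT-Car, the 3 WS+HL-Car libraries lay entirely above or entirely below the 3 controls. In whole-leaf RNA, fewer cells of a type and less RNA per cell cannot be told apart.

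Measured per transcript length, the composition of the leaf mRNA was reordered. An early light-induced protein 1 gene (ELIP1, LOC102578039), whose product binds free chlorophyll under light stress, had 2339, 2557 and 3224 TPM (scaled transcript abundance) in the 3 control libraries and 14655, 14099 and 14403 TPM in the 3 WS+HL libraries. Ranked by mean TPM in the group among protein-coding genes outside the chloroplast genome, it moved from place 17 to place 1. LEA46-like (LOC102628020) went from place 6974 to place 4, with 28.4, 25.3 and 31.3 TPM in the controls and 7321, 8856 and 9005 TPM under the combination. A Rubisco small chain gene (LOC102612988), which ranked first in the controls at 10640.0, 8922 and 12371 TPM, stood at place 12 with 3546, 3141 and 3043 TPM. Genes for abscisic stress-ripening protein 2-like (LOC102618218), SRC1-like (LOC102607844) and the BURP domain protein RD22 (LOC102618521), held places 2, 3 and 6. Under water stress alone (WS-Car) the order was similar, with these genes at places 1, 2 and 5, LEA46-like at place 3 and ELIP1 LOC102578039 at place 4. Those leading genes were chosen by rank after their values were seen.

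**Figure D1:**
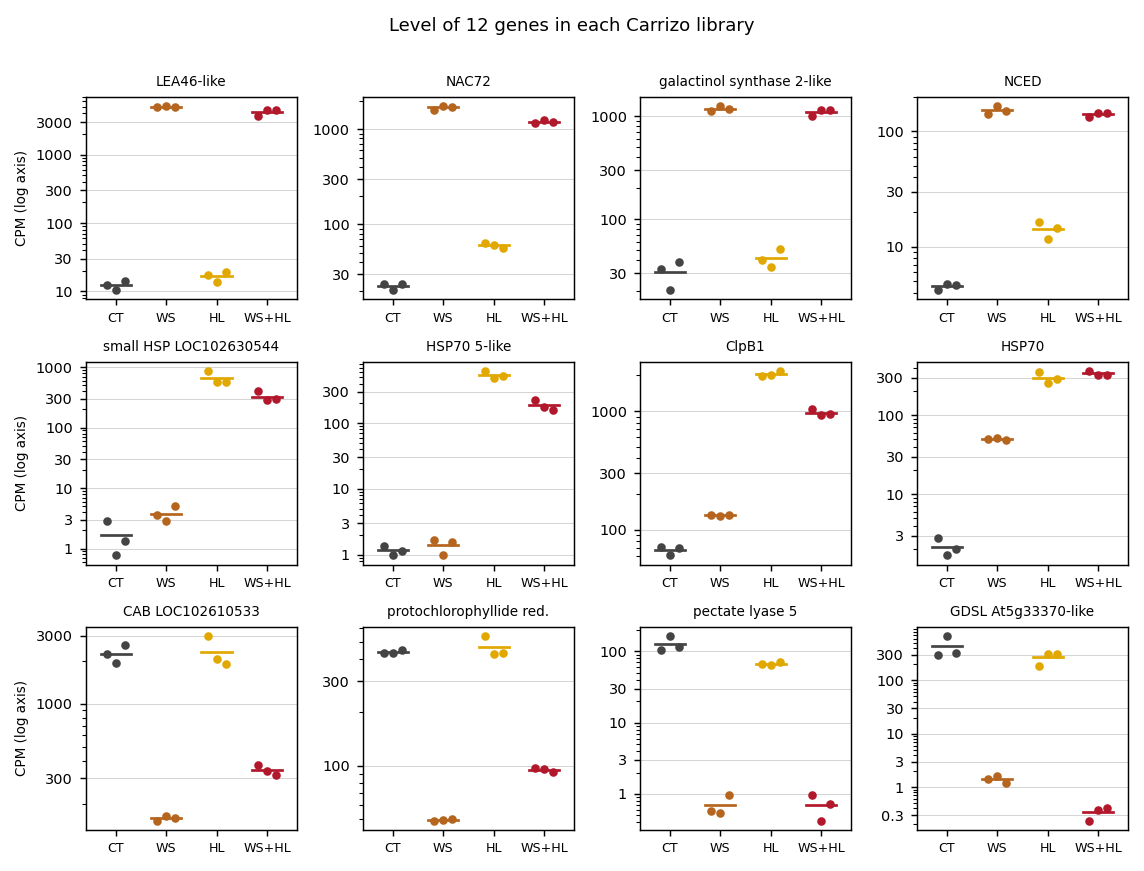
Normalised CPM (log axis) of 12 genes in each Carrizo library; each point is 1 library, each short line the mean of 3, and the groups are control, water stress, high light and both stresses. LEA46-like, NAC72, galactinol synthase and NCED were high in both groups with water stress, and the 4 genes in the bottom row were low there. The small heat shock protein, ClpB1 and both HSP70 genes were highest in the 2 groups with high light. HSP70 LOC102625888 was also above its controls in WS-Car, at 49.8, 52.1 and 49.1 CPM.

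Genes of desiccation protection rose steeply. LEA46-like had 12.4, 10.4 and 14.2 CPM in the 3 controls and 3665, 4426 and 4505 CPM in the 3 WS+HL libraries, a log2 fold change of 8.41 ± 0.45 (SE, n = 3 per group, edgeR adjusted p = 3.77e-18), the largest rise that met the naming rule. The stressed libraries lay far above every control. Lea14-A (LOC102617074) went from 55.5, 50.2 and 63.5 CPM to 2361, 2618 and 2671 CPM (log2 5.50 ± 0.16 SE, edgeR adjusted p = 4.60e-28). The dehydrin gene DHN was already abundant in the controls at 269, 254 and 283 CPM and reached 1285, 1417 and 1489 CPM. Of 22 tested LEA and dehydrin genes, 15 were higher and 0 lower, with a median log2 fold change of 2.69, which was 3.81 among marked libraries alone. In the WS-Car leaves LEA46-like stood at 4939, 5149 and 4956 CPM, a difference from the combination that did not pass the test (log2 -0.26 ± 0.32 SE, adjusted p = 0.641), while in HL-Car it had 17.2, 13.7 and 19.4 CPM.

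Synthesis of osmolytes followed the same direction. Galactinol synthase 2-like (LOC102608882), which makes the galactosyl donor of the raffinose family, rose from 32.6, 20.4 and 38.7 CPM to 1012, 1147 and 1149 CPM (log2 5.17 ± 0.16 SE, edgeR adjusted p = 9.29e-28). Stachyose synthase (LOC102611645), which acts further along that pathway, had 4.43, 3.09 and 5.56 CPM in the controls against 343, 388 and 388 CPM. Its stachyose synthase-like paralog LOC102612410 was almost silent without water stress, at 0.148, 0.297 and 0.311 CPM in CT-Car and 1.44, 1.16 and 0.379 CPM in HL-Car, and had 141, 169 and 156 CPM under the combination. Where copies are alike, reads could have been divided between them by the counting, and the likeness of these copies was not tested. The split between paralogs is therefore uncertain here and in the other multigene families below. Of 13 raffinose family genes 9 were higher and 3 lower (median log2 2.49). Among 7 proline genes 5 were higher and 2 lower (median 0.76), led by delta-1-pyrroline-5-carboxylate synthase-like LOC102619471, the committed enzyme of proline synthesis, at 366, 328 and 403 CPM against 1339, 1336 and 1274 CPM.

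Genes of abscisic acid synthesis were divided, and the phosphatases of its signalling rose. NCED, a 9-cis-epoxycarotenoid dioxygenase that performs the rate-limiting step of abscisic acid synthesis, had 4.19, 4.78 and 4.68 CPM in the controls and 135, 144 and 145 CPM in the stressed leaves (log2 4.96 ± 0.14 SE, edgeR adjusted p = 1.68e-28). The 8'-hydroxylase gene CYP707A3, whose product inactivates the hormone, also rose, from 5.56, 8.44 and 6.39 to 26.6, 25.2 and 26.2 CPM, whereas zeaxanthin epoxidase (LOC102577984), an earlier step, fell from 617, 643 and 629 to 322, 339 and 339 CPM. The synthesis and breakdown list as a whole was split, with 5 higher and 5 lower of 15 (median 0.23). In signalling, 21 of 36 genes were higher and 9 lower (median 0.49). Protein phosphatase 2C 24 (LOC102611031), of the phosphatase class that holds the pathway off without hormone, showed 39.8, 33 and 43.4 against 804, 897 and 906 CPM (log2 4.49 ± 0.09 SE, adjusted p = 7.86e-34), and 2C 77 (LOC102624980), 2C 51 (LOC102621444) and 2C 56-like (LOC102623733) rose by log2 4.32, 4.08 and 2.93.

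Most water channel genes fell. Of 31 tested aquaporin genes 19 were lower and 5 higher, with a median log2 fold change of -0.99. NIP2-1-like (LOC102612686) dropped from 150.2, 137 and 136 CPM to 6.2, 5.14 and 5.51 CPM (log2 -4.65 ± 0.12 SE, adjusted p = 7.70e-30), and AQPAn.G-like (LOC102614478) from 76.1, 147 and 79.7 CPM to 0.796, 1.33 and 1.72 CPM. The plasma membrane channels PIP2-8 (LOC102624436) and 2 PIP2-2-like genes (LOC102609769 and LOC102608729) fell, with log2 fold changes of -2.70, -2.71 and -2.91. Against WS-Car the list leaned the other way, with 7 genes higher and 0 lower in the combination (median 0.23).

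Chaperone genes formed the other large rise. A small heat shock protein gene (LOC102630544), of the chaperones that hold unfolding proteins, went from 2.88, 0.773 and 1.33 CPM to 399.5, 285 and 296 CPM (log2 7.61 ± 0.26 SE, n = 3 per group, edgeR adjusted p = 1.34e-25). Class I proteins of 17.4 kDa (LOC102613214) and 18.2 kDa (LOC102621053) rose by log2 6.85 ± 0.20 and 6.13 ± 0.16 (SE), from at most 3.54 CPM in any control to at least 215 CPM in any stressed library. The chloroplast small heat shock proteins LOC102608585 and LOC102630008 had 7.81, 6.08 and 6.63 CPM and 31.8, 28.2 and 33.4 CPM in the controls, against 467, 372 and 377 CPM and 622, 516 and 551 CPM. Of 29 tested small heat shock protein genes 26 were higher and 1 lower (median log2 5.16), beside 28.8% higher among all genes. Their summed level ran from 192 to 253 CPM in the controls and from 4523 to 5639.5 CPM in the stressed libraries, with no overlap.

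Among the ATP-driven chaperones, 2 HSP70 genes were close to silent in the controls. HSP70 5-like (LOC102625591) had 1.35, 0.971 and 1.14 CPM there and 228, 176 and 158 CPM under both stresses (log2 7.34 ± 0.18 SE, adjusted p = 1.25e-30). HSP70 LOC102625888 had 2.82, 1.68 and 2.04 against 361, 324 and 327 CPM, and 49.8, 52.1 and 49.1 CPM in WS-Car. ClpB1 (LOC102620452), a disaggregase, rose from 71.2, 60.5 and 70.4 to 1039, 923 and 951 CPM and heat shock protein 83 (LOC102628301), of the HSP90 family, from 39.7, 39.2 and 39.7 to 459, 378 and 384 CPM. That list held 21 higher and 1 lower genes of 26 (median 1.39). Of 22 heat stress transcription factors 17 were higher and 2 lower (median 0.73); HSF30 (LOC102620157) reached 2149.5, 2108 and 2224 CPM from 426, 443 and 331 CPM. The co-chaperones of the DnaJ and BAG families were less uniform, with 39 higher and 17 lower of 73 (median 0.25). In the endoplasmic reticulum folding list 12 rose and 11 fell of 36 (median -0.04), and luminal-binding protein 5 (LOC102609733), an HSP70 of that compartment, rose from 0.683, 1.05 and 0.38 to 95.6, 56.4 and 50.3 CPM while calreticulin-3-like (LOC102611212) fell from 151, 130.5 and 139 to 54.2, 51 and 53 CPM.

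**Figure D2:**
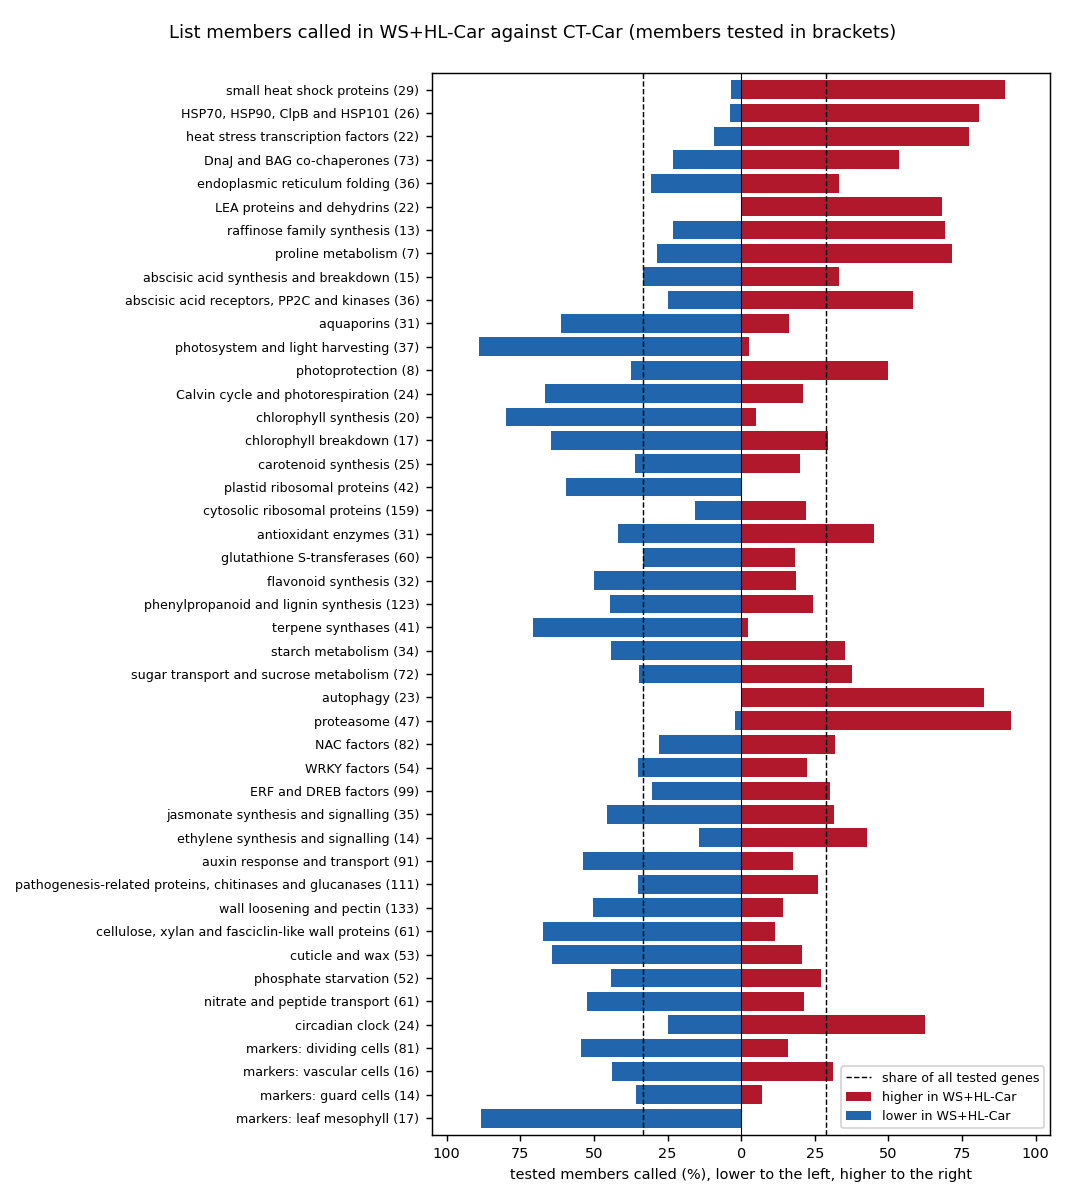
Share of the tested members of each of 45 gene lists that were called higher (right, red) or lower (left, blue) in WS+HL-Car than in CT-Car, in percent, with the number tested in brackets; dashed lines mark the shares over all tested genes, 28.8% higher and 33.2% lower. Proteasome, small heat shock protein and autophagy lists lay farthest to the right, and photosystem, mesophyll marker and chlorophyll synthesis lists farthest to the left.

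Nearly all nuclear genes of the light reactions were lower. Chlorophyll a-b binding protein 151 (LOC102610533), an antenna protein, had 2220.5, 1919.6 and 2566 CPM in the controls and 375, 338 and 317 CPM in the stressed leaves (log2 -2.70 ± 0.14 SE, edgeR adjusted p = 1.40e-20). Antenna protein P4 (LOC102630539) fell, with a log2 fold change of -2.29 ± 0.11 (SE), and photosystem I subunit O (LOC102626023) from 246, 248 and 258 to 36, 37.2 and 35.5 CPM. Of 37 tested photosystem and light-harvesting genes 33 were lower and 1 higher (median -1.09); the gene that rose was a psbY-like photosystem II core gene (LOC107176823), at 7.7, 6.08 and 7.37 against 18.7, 16.4 and 18.2 CPM. Their sum was 31009.8 to 40109.6 CPM in the controls and 15929 to 17735 CPM in WS+HL-Car. The leaf mesophyll marker list, which shares antenna genes with this one, had 15 lower and 0 higher of 17 (summed level 25504 to 34630.0 CPM against 12521 to 14097 CPM); its part in the results on chloroplast genes was not tested.

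Most genes of pigment synthesis and carbon fixation also fell. Protochlorophyllide reductase (LOC102614959), the light-dependent step of chlorophyll synthesis, fell from 437, 437 and 449 CPM to 96.4, 95.6 and 91.7 CPM (log2 -2.22 ± 0.07 SE, adjusted p = 2.69e-28). Of 20 chlorophyll synthesis genes 16 were lower and 1 higher (median -0.49). The breakdown list was also mostly lower, with 11 of 17 (median -0.69), but the 5 genes that rose included STAY-GREEN (LOC102625350), which removes magnesium from chlorophyll, at 31.3, 32.5 and 27.4 against 297, 335 and 327 CPM, pheophytinase (LOC102610088), at 56.9, 50.5 and 55.5 against 257, 275 and 259.6 CPM, and the chlorophyll b reductase NYC1 (LOC102617189; log2 1.42). The summed level of the breakdown list rose all the same, at 1006 to 1067 CPM in the controls and 1803 to 1840 CPM in WS+HL-Car. In the Calvin cycle and photorespiration list 16 genes fell and 5 rose of 24 (median -0.57). Chloroplast fructose-1,6-bisphosphatase (LOC102628345) dropped from 329, 259.9 and 379 to 126, 109 and 104 CPM, while Rubisco activase 2 (LOC102630057), a further copy of the enzyme that reopens Rubisco, rose from 65, 55.2 and 66.8 to 412, 385 and 402 CPM and had 1615, 1499.8 and 1595 CPM in HL-Car. Carotenoid genes were mixed (5 higher and 9 lower of 25, median -0.23): beta-carotene hydroxylase (LOC102578021) rose by log2 1.44, and carotenoid cleavage dioxygenase 4 (LOC102612995) fell from 207, 198 and 216 to 17.9, 17.8 and 17.4 CPM.

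Photoprotection genes were divided, with very large rises of the ELIP genes. Besides the ELIP1 gene above, a further ELIP1 gene (LOC102626141) had 81, 111 and 139 CPM in the controls and 4319.5, 3918 and 3958 CPM under the combination (log2 5.20 ± 0.15 SE, edgeR adjusted p = 1.91e-28). Stress enhanced protein 2 (LOC102628507) and the one-helix protein OHP2 (LOC102625140) rose by log2 0.91 and 0.53, while OHP1 (LOC102606882), stress enhanced protein 1 (LOC102610811) and violaxanthin de-epoxidase (VDE), the enzyme that makes zeaxanthin in strong light, fell, with log2 fold changes of -0.90, -0.47 and -0.21. The photosystem II 22 kDa protein (LOC102630024), which carries out rapid energy-dependent quenching, had 2419, 1960.0 and 2952 CPM in the controls and 2889.7, 2557 and 2535 CPM under stress, and did not pass the test (log2 0.12 ± 0.13 SE, adjusted p = 0.441), and the groups overlapped. In all 4 of 8 rose and 3 fell (median 0.33). With the unmarked libraries alone 1 was lower. The members of this short list outside the naming rule (OHP2, stress enhanced protein 1, violaxanthin de-epoxidase and the 22 kDa protein), the psbY-like gene and the guard cell factors below are given to complete their lists and were chosen after their values were seen.

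**Figure D3:**
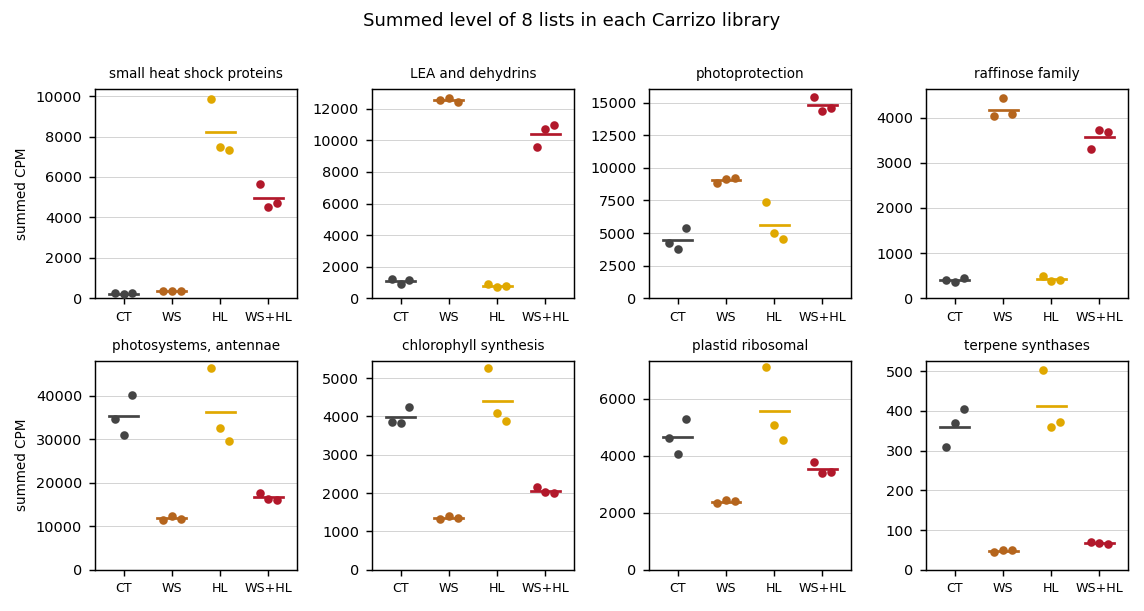
Summed CPM of the tested members of 8 lists in each Carrizo library; points are libraries, short lines the mean of 3, and every vertical axis starts at 0. LEA and raffinose lists were high in both groups with water stress, small heat shock proteins in both groups with high light, and the photoprotection list had its highest sums under the combination, 14404 to 15477 CPM.

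Plastid ribosomal protein genes were lower, 25 of 42 with 0 higher (median -0.32), for example 30S protein S5 (LOC102619644), which went from 225, 210.2 and 260.4 to 122, 115 and 119 CPM. With unmarked libraries alone 20 were lower and 1 higher (median -0.18). The cytosolic ribosomal list of 159 genes had 35 higher and 25 lower (median 0.04), shares of called genes below those of all genes. Those counts depended on the libraries used. With the unmarked libraries alone, which hold 1 control, the median was 0.145. Antioxidant enzymes were divided, with 14 higher and 13 lower of 31 (median 0.14). Catalase-like LOC102615999, which removes hydrogen peroxide in peroxisomes, fell from 1278, 1324 and 1287 to 348, 347 and 332 CPM, and a chloroplast Cu-Zn superoxide dismutase (LOC102626642) from 45.7, 52.4 and 46 to 12.1, 10.6 and 14.2 CPM. Cytosolic ascorbate peroxidase 2 (LOC102622372) rose from 7.18, 6.3 and 9.26 to 34.3, 24.5 and 25 CPM. In the glutathione S-transferase family 11 rose and 20 fell of 60 (median -0.17), with F6 (LOC102614737) at 126, 108 and 143 against 597, 569 and 578 CPM.

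Flavonoid genes split into members that rose and members that fell. Naringenin,2-oxoglutarate 3-dioxygenase-like (LOC102617426), the flavanone 3-hydroxylase step, rose from 75.4, 107 and 88.2 CPM to 984, 1012 and 1024 CPM (log2 3.48 ± 0.15 SE, adjusted p = 1.55e-22), and flavonoid 3'-monooxygenase LOC102620909 from 19.6, 19.6 and 19.9 to 80.7, 87.2 and 83.1 CPM. Other copies of the latter enzyme, LOC102630520 and LOC112496318, fell, with log2 fold changes of -3.18 ± 0.13 and -2.12 ± 0.10 (SE). In all, 6 were higher and 16 lower of 32, and the median of -1.0 became -0.33 with the unmarked libraries alone. Phenylpropanoid and lignin genes had 30 higher and 55 lower of 123 (median -0.36), and cinnamoyl-CoA reductase 2 (LOC102627726), which makes lignin precursors, dropped from 1327, 1209 and 1378 to 245, 236 and 228 CPM. Terpene synthases fell together: 29 of 41 were lower and 1 higher (median -2.81), with a sum of 309.5 to 404 CPM in the controls and 65.2 to 70.3 CPM under stress. A limonene synthase (LOC102607029) stood at 15.7, 26.4 and 26 against 1.12, 1.55 and 1.26 CPM, and a germacrene D synthase-like gene (LOC102623066) at 81.4, 86 and 117 against 10.5, 11.8 and 11.3 CPM.

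Most genes of protein turnover were raised. In the proteasome list 43 of 47 genes were higher and 1 lower (median 0.65). Among them, non-ATPase subunit 4 (LOC102609685) went from 41.4, 36.8 and 45 to 88.3, 83 and 84.1 CPM and alpha type-6 (LOC102610983) from 18.4, 18 and 20.2 to 37.8, 35.9 and 36.9 CPM. Of 23 autophagy genes 19 were higher and 0 lower (median 0.48), with ATG8f (LOC102611739), whose product coats the autophagosome membrane, at 22.9, 26.3 and 24 against 65.1, 65.6 and 68.7 CPM. Asparagine synthetase 1 (LOC102628580), which stores nitrogen in asparagine, had 1.48, 0.951 and 1.59 CPM in the controls and 139, 133 and 135 CPM in stressed leaves (log2 6.65 ± 0.17 SE, adjusted p = 5.39e-30), below the 349, 404 and 384 CPM of WS-Car. Nitrate and peptide transporter genes were mostly lower (32 lower and 13 higher of 61, median -0.70), but 2 NRT1/PTR family 1.2-like genes (LOC102628275 and LOC102629126) rose by log2 3.44 and 3.54. Phosphate starvation genes had 14 higher and 23 lower of 52 (median -0.20); SPX domain protein 1 (LOC102629287), a phosphate sensor, fell from 56.1, 62.2 and 64.5 to 20.1, 15.6 and 16.6 CPM.

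In carbon storage, starch genes were divided, with steep falls of 2 genes of starch synthesis. Glucose-1-phosphate adenylyltransferase small subunit 2 (LOC102625409) fell from 256, 269 and 312 to 29.7, 28.1 and 29.9 CPM (log2 -3.26 ± 0.11 SE, adjusted p = 1.34e-26) and granule-bound starch synthase 1 (LOC102577951) from 1075, 1014 and 1187 to 191, 194 and 196 CPM. Alpha-glucan phosphorylase 2 (LOC102606996) fell too, with log2 fold changes from -1.715 to -1.633 over the alternatives run. Inactive beta-amylase 9 (LOC102577946) rose, with 2.437 to 2.675. The starch list as a whole held 12 higher and 15 lower genes of 34 (median 0.01). Its summed level was higher under stress, at 4213 to 4466 CPM in the controls and 4850 to 4914 CPM in WS+HL-Car. Sugar transport and sucrose genes were balanced, with 27 higher and 25 lower of 72 and a median of 0.00, which was 0.12 with members absent from a group set at their bound. Mitochondrial invertase A (LOC102630289) rose from 10.6, 12.5 and 9.82 to 60.8, 78.2 and 70.2 CPM and the vacuolar sugar transporter SWEET16-like (LOC102626671) from 8.97, 8.4 and 9.63 to 38.9, 40.3 and 42.7 CPM.

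Transcription factors known from water stress were among the genes that rose. NAC72 (LOC102612201), a regulator of dehydration responses in Arabidopsis, rose from 23.8, 20.4 and 23.6 CPM to 1165, 1249 and 1190.2 CPM (log2 5.73 ± 0.09 SE, edgeR adjusted p = 1.00e-37), and NAC29 (LOC102608057) from 15, 11.5 and 11.9 to 170.3, 150.2 and 158 CPM. The NAC family had 26 higher and 23 lower genes of 82 (median -0.06). DREB2A (LOC102610198), which activates dehydration and heat genes in Arabidopsis, had 4.13, 4.87 and 5.49 against 111, 76.8 and 75.2 CPM, and ERF016 (LOC102630037) 2.86, 2.3 and 3.52 against 61.5, 49.5 and 54.7 CPM, within an ERF and DREB list of 30 higher and 30 lower of 99 (median 0.00, or 0.14 with absent members at their bound). WRKY factors had 12 higher and 19 lower of 54 (median -0.12), and WRKY70 (LOC102607863), a defence regulator in Arabidopsis, fell from 6.96, 7.53 and 8.32 to 1.48, 1.58 and 1.94 CPM. EID1-like F-box protein 3 (LOC102625456) was among the largest rises, at 1.44, 0.753 and 1.49 against 96.7, 95.9 and 94.9 CPM. In the clock list 15 were higher and 6 lower of 24 (median 0.47), among them GIGANTEA (LOC102626780) at 156, 154 and 152 against 438, 440.1 and 437 CPM. The hour of sampling is not stated in the sources.

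Auxin and jasmonate genes were more often lower than higher, and the short ethylene list had a median of 0.00. Auxin genes had 49 lower and 16 higher of 91 (median -0.66); auxin response factor 4 (LOC102613600) fell from 113, 118 and 107 to 4.95, 5.69 and 5.97 CPM (log2 -4.34 ± 0.09 SE, adjusted p = 6.34e-33) and the auxin repressor IAA29 (LOC102617957) rose from 6.87, 7.11 and 7.74 to 116, 133 and 128 CPM. Jasmonate genes had 11 higher and 16 lower of 35 (median -0.33). Chloroplast 13S-lipoxygenase 2-1 (LOC102614914), which opens the oxylipin pathway, fell from 79.3, 55.7 and 61.5 to 2.09, 3.76 and 2.45 CPM, while the jasmonate repressors TIFY 10A (LOC102631355) and TIFY 3B (LOC102629841) rose by log2 1.53 and 1.40. Of 14 ethylene genes 6 were higher and 2 lower (median 0.00, or 0.28 with absent members at their bound). Pathogenesis-related proteins, chitinases and glucanases had 29 higher and 39 lower of 111 (median -0.05, or -0.30 at the bound), with chitinase CHI1 at 1.53, 0.376 and 0.518 against 144, 92.8 and 102 CPM.

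Cell wall and surface lipid genes were among the 12 largest falls. A GDSL esterase/lipase (At5g33370-like, LOC102630247) had 302, 666 and 325 CPM in the controls and 0.237, 0.368 and 0.415 CPM in the stressed leaves, a log2 fold change of -10.28 ± 0.37 (SE, n = 3 per group, edgeR adjusted p = 1.60e-21). A further GDSL gene (At5g45910, LOC102618467), a palmitoyl-ACP thioesterase (LOC102618665), which releases fatty acids from the plastid, and probable pectate lyase 5 (LOC102629596), which cuts pectin, fell, with log2 fold changes of -8.05 ± 0.42, -7.77 ± 0.43 and -7.51 ± 0.33 (SE). HOTHEAD-like (LOC102630146), an oxidoreductase of cutin formation in Arabidopsis, went from 230.0, 488 and 195 to 2.65, 5.67 and 5.47 CPM, and the lipid exporter gene ABCG15-like (LOC102626767) from 175, 206 and 130.1 to 3.16, 2.96 and 3.48 CPM. Control replicate 2, the unmarked library, was the highest of the 3 controls for each of these 6 genes; every control still lay far above every stressed library. The remaining genes among the 12 largest falls were a TANGO2 homolog (LOC102619385; -7.47), a 36.4 kDa proline-rich protein (LOC102620067; -7.37), proline-rich protein 4-like (LOC102619149; -5.69), fatty acid amide hydrolase (LOC102618838; -5.72), trans-resveratrol di-O-methyltransferase (LOC102609728; -5.53) and the aquaporin AQPAn.G-like, all as log2 fold changes.

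By list, 34 of 53 cuticle and wax genes were lower and 11 higher (median -1.11, or -1.40 with absent members at their bound). Those that rose included 3-ketoacyl-CoA synthase 11 (LOC102609752), an elongase of very-long-chain fatty acids, at 55.2, 47.4 and 44.3 against 152, 137 and 144 CPM. Wall loosening and pectin genes had 67 lower and 19 higher of 133 (median -1.02, or -1.65 at the bound, and 0 without the filter on low counts), with expansin-A4 LOC102621431 at 43.4, 62 and 61.6 against 1.46, 1.73 and 1.34 CPM. Of 61 cellulose, xylan and fasciclin-like genes 41 were lower and 7 higher (median -1.23); fasciclin-like arabinogalactan protein 2 (LOC102615967) fell from 59.9, 67.1 and 64.1 to 6.0, 7.51 and 7.47 CPM. Markers of dividing cells moved with them: 44 of 81 were lower and 13 higher (median -0.76), and cyclin-D1-1 (LOC102622171) fell from 26.5, 27.7 and 23.1 to 2.99, 2.98 and 2.85 CPM, while their summed level was 3446 to 4217 CPM against 4166 to 4403 CPM. The part of that cell class in the wall and cuticle results was not tested.

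Vascular and guard cell markers gave no common direction in their tests. Over all tested genes, 28.8% were higher and 33.2% lower. Vascular markers had 5 higher and 7 lower of 16, with sums of 265 to 362 CPM and 294 to 373 CPM that overlapped. Guard cell markers had 1 higher and 5 lower of 14, a share of lower genes near that over all genes. Their median was -0.22 and ranged from -0.79 to 0.03 over the alternatives run, the lowest with unmarked libraries alone. Their sums were 735 to 935 CPM and 365 to 429 CPM, of which ASPARTIC PROTEASE IN GUARD CELL 1 (LOC102619825) made up 603, 742 and 652 CPM and 244, 285 and 276 CPM. ASPARTIC PROTEASE IN GUARD CELL 2 (LOC102615828) fell as well, with log2 fold changes from -4.54 to -3.99 over the alternatives run. The guard cell anion channel SLAC1 (LOC102618524) had 6.72, 20.1 and 5.58 CPM and 3.94, 12.7 and 11.6 CPM (adjusted p = 0.734) and the stomatal factor FAMA (LOC102616272) 4.48, 10.8 and 3.54 CPM and 4.28, 9.48 and 9.43 CPM (adjusted p = 0.537). For both genes the unmarked libraries, CT-Car 2 and WS+HL-Car 2 and 3, were the highest of their group, and the groups overlapped. MUTE, a factor of early stomatal development, had 0 counts in all 6 libraries. Of the other marker lists, 5 of the 86 members for dividing cells and 1 Rubisco small chain copy in the mesophyll list were at 0 in these libraries, and no vascular marker was.

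Set against water stress alone, the combination shows what accompanied high light in leaves that were also short of water. Of the 23721 genes, 3005 were higher (12.7%) and 2887 lower (12.2%) in WS+HL-Car than in WS-Car, 24.8% in all, and 371 (1.56%) and 459 (1.93%) changed at least 2-fold. The median over all genes was 0. The 5 largest rises by the naming rule were all chaperone genes: HSP70 5-like (LOC102625591), with 1.67, 0.992 and 1.57 CPM in WS-Car and 228, 176 and 158 CPM in WS+HL-Car (log2 7.05 ± 0.18 SE, edgeR adjusted p = 4.85e-29), and small heat shock proteins LOC102630544, LOC102621053, LOC102626248 and LOC102613214 (log2 6.44, 5.48, 4.98 and 4.94). In the small heat shock protein list 25 of 29 were higher and 0 lower (median 3.71), and in the HSP70, HSP90 and ClpB list 19 of 26 and 0.

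Photosystem, chlorophyll synthesis and plastid ribosomal genes were more often higher than lower against water stress alone, although more often lower against the controls. Of 37 photosystem genes 27 were higher and 0 lower than in WS-Car (median 0.44), with sums of 11508 to 12267 CPM there. Chlorophyll synthesis had 14 higher and 0 lower of 20 (median 0.48) and plastid ribosomal proteins 38 and 0 of 42 (median 0.61). Calvin cycle and photorespiration genes had 10 higher and 4 lower of 24 (median 0.27) and photoprotection genes 6 higher and 0 lower of 8 (median 0.42). Carotenoid synthesis had 6 higher and 3 lower of 25 (median 0.12) and chlorophyll breakdown 2 higher and 3 lower of 17 (median 0.13). Outside the chloroplast, cytosolic ribosomal proteins had 82 higher and 0 lower of 159 (median 0.29). Chlorophyll a-b binding protein 151 (LOC102610533), for example, had 152, 165 and 158 CPM in WS-Car and 375, 338 and 317 CPM in WS+HL-Car (log2 1.12 ± 0.13 SE, adjusted p = 1.09e-08). Mesophyll markers had 14 higher and 0 lower of 17 in that comparison.

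Lower than under water stress alone were defence and jasmonate regulators. WRKY33 (LOC102608921), WRKY53 (LOC102614924) and TIFY 5A-like (LOC102609610) had 33.2, 29.5 and 28.5 CPM, 34.6, 35.3 and 34.6 CPM and 20.7, 18.9 and 20.9 CPM in WS-Car, and 8.35, 7.48 and 6.21 CPM, 10.1, 4.68 and 6.44 CPM and 5.01, 4.42 and 4.17 CPM in the combination. The largest fall, in the amino acid transporter gene AVT1I-like (LOC102612989), was log2 -2.53 ± 0.19 (SE, adjusted p = 2.11e-13), and 13S-lipoxygenase 3-1 (LOC102622489) fell too (log2 -2.21 ± 0.19 SE). Against CT-Car, WRKY33, WRKY53 and AVT1I-like did not pass the test (adjusted p = 0.906, 0.157 and 0.168). By list, 29 of 54 WRKY factors were lower and 1 higher than in WS-Car (median -0.45), and 16 of 35 jasmonate genes lower and 1 higher (median -0.34). The LEA list had 1 higher and 3 lower of 22 (median -0.15) in that comparison, and its summed level was 12461 to 12667 CPM in WS-Car and 9553 to 10988 CPM in WS+HL-Car, with no overlap. The raffinose list had 3 higher and 4 lower of 13 (median -0.16), and the list of abscisic acid receptors, phosphatases 2C and kinases 2 higher and 8 lower of 36 (median -0.10). The smaller NAC72 value in the combination was called (log2 -0.50 ± 0.07 SE, adjusted p = 6.44e-07).

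**Figure D4:**
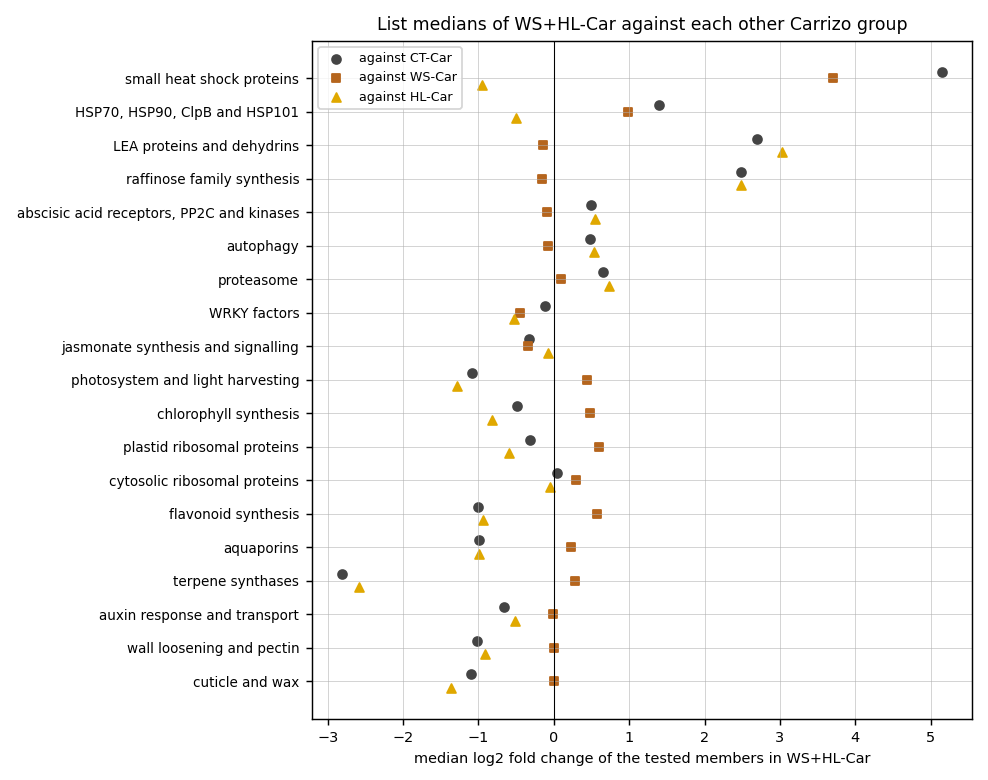
Median log2 fold change of the tested members of 19 lists in WS+HL-Car against CT-Car (circles), WS-Car (squares) and HL-Car (triangles); the vertical line marks no change, and the 3 comparisons share the WS+HL-Car libraries. The small heat shock protein list and the HSP70, HSP90 and ClpB list were far above 0 against the controls and against water stress and below 0 against high light, whereas LEA and raffinose lists were near 0 against water stress and far above 0 against the other groups.

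Set against high light alone, the combination shows what accompanied water stress in leaves under strong light. Higher in WS+HL-Car were 6707 genes (28.3%) and lower 8444 (35.6%), 63.9% in all, and 1935 (8.16%) and 4589 (19.3%) changed at least 2-fold. The median over all genes was -0.11. LEA46-like, stachyose synthase-like LOC102612410, asparagine synthetase 1, Lea14-A and stachyose synthase made up the 5 largest rises (log2 7.97, 7.29, 6.14, 5.54 and 5.19 in that order, for LOC102628020, LOC102612410, LOC102628580, LOC102617074 and LOC102611645). The 5 largest falls were the GDSL genes LOC102630247 and LOC102618467, the thioesterase LOC102618665, the TANGO2 homolog LOC102619385 and the proline-rich protein LOC102620067, with log2 fold changes from -9.61 to -6.94. Small heat shock proteins were lower in the combination than under high light, 21 of 29 with 2 higher (median -0.95), and HSP70, HSP90 and ClpB genes had 18 lower and 3 higher of 26 (median -0.51). The small heat shock protein LOC102630544 had 862, 565 and 572 CPM in HL-Car, where replicate 1, the marked library, stood highest, and HSP70 LOC102625888 had 357, 255 and 288 CPM, for which the difference did not pass the test (log2 0.17 ± 0.10 SE, adjusted p = 0.145). Photosystem genes had 35 lower and 0 higher of 37 (median -1.29).

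Some genes lay outside the range of all other Carrizo groups studied here. Genes called higher against each of the 3 groups made up 2.78% of those tested and genes called lower 3.41%. In 564 genes (2.38%) the 3 WS+HL libraries were all above the 9 libraries of CT-Car, WS-Car and HL-Car and the gene was called against each group, and in 663 (2.79%) they were all below. The 3 tests share the WS+HL-Car libraries. The genes named next were chosen after their values were seen, by the size of the smallest of their 3 differences. ELIP1 LOC102626141 led the first set, with 1500.4, 1542 and 1548 CPM in WS-Car, 424, 308 and 268 CPM in HL-Car and 4319.5, 3918 and 3958 CPM in the combination, which was log2 1.41 ± 0.13 above water stress and 3.61 ± 0.14 above high light (SE, edgeR adjusted p = 3.02e-11 and 4.33e-24). An 18.1 kDa class I heat shock protein-like gene (LOC102617602) had 1.68, 1.57 and 1.52 CPM in CT-Car, 8.91, 8.52 and 7.5 CPM in WS-Car, 19.8, 11 and 12.1 CPM in HL-Car and 38.5, 38.4 and 35.2 CPM in the combination. Chitinase CHI1 had 47.6, 46.7 and 43.4 CPM in WS-Car, 3.04, 9.41 and 2.88 CPM in HL-Car and 144, 92.8 and 102 CPM with both stresses. A putative methyltransferase NSUN6 gene (LOC102618071) stood at 35.6, 37.5 and 35.9 CPM, 51.9, 57.8 and 53.2 CPM and 143, 132 and 131 CPM in these groups. The others of the first 10 were a UPF0098 protein, defensin Ec-AMP-D1 (LOC102611353), non-specific lipid-transfer protein 4 (LOC102613139), CORA-like (LOC102623392), NAC104-like (LOC102628071) and an esterase C25G4.2-like gene (LOC102611785).

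At the other end stood oxylipin enzymes. 13S-lipoxygenase 2-1 (LOC102614914) had 79.3, 55.7 and 61.5 CPM in CT-Car, 16.9, 24.4 and 19.7 CPM in WS-Car, 47.5, 32.5 and 25.4 CPM in HL-Car and 2.09, 3.76 and 2.45 CPM in the combination (log2 -2.87 ± 0.21 against WS-Car and -3.66 ± 0.21 against HL-Car, SE). Fatty acid hydroperoxide lyase (HPL), which cleaves lipoxygenase products into green-leaf aldehydes, had 33.5, 27.4 and 32.6 CPM, 11.6, 15 and 11.9 CPM, 35.2, 21.9 and 21.1 CPM and 2.11, 1.57 and 2.15 CPM in the same order (log2 -2.73 ± 0.16 and -3.75 ± 0.16, SE, edgeR adjusted p = 1.52e-16 and 1.38e-22). 13S-lipoxygenase 3-1 (LOC102622489) had 22.1, 32.3 and 20.1 CPM, 40.1, 41.6 and 39.3 CPM, 24.9, 44.2 and 47.6 CPM and 8.84, 8.62 and 8.64 CPM. The WS+HL libraries were the lowest of the 12 for each of the 3 genes. Receptor-like proteins 14 (LOC102619650) and 7 (LOC102620681), NUCLEAR FUSION DEFECTIVE 4 (LOC102610314), the extensin-like EPR1 (LOC102617583) and 3 GDSL genes completed the first 10. For GDSL At5g45910 the difference from WS-Car (log2 -1.69 ± 0.51 SE, adjusted p = 0.0136) was lost without WS+HL-Car replicate 1 (adjusted p = 0.0576), and for GDSL At2g42990 (LOC102618547; -1.26 ± 0.40 SE, adjusted p = 0.0177) without WS+HL-Car replicate 1, WS-Car replicate 1 or WS-Car replicate 2 (adjusted p = 0.0894, 0.0767 and 0.0687).

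**Figure D5:**
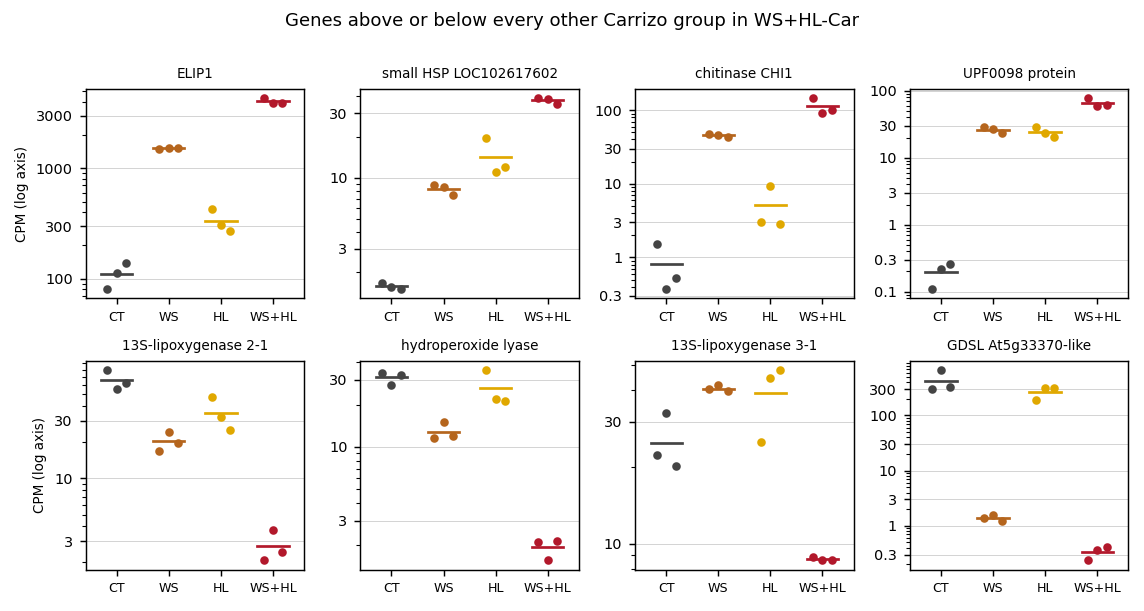
Normalised CPM (log axis) in each Carrizo library of 8 genes that were above (upper row) or below (lower row) every other Carrizo group shown when water stress and high light were combined; points are libraries and short lines the mean of 3. The WS+HL libraries do not overlap those of any other group in any panel.

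Cleopatra mandarin was given the same treatments, and the change under the combination was compared between the genotypes as an interaction, the Cleopatra change minus the Carrizo change. By that test 9494 genes (40.0%) differed, 4502 with the more positive change in Cleopatra (19.0%) and 4992 with the more positive change in Carrizo (21.0%). Differences of at least 2-fold were found for 2184 genes (9.21%) in the first direction and 1759 (7.42%) in the second. Small heat shock proteins had 17 of 29 genes with the more positive change in Carrizo and 1 in Cleopatra (median -1.88). Their summed level in Cleopatra ran from 523 to 689.6 CPM in the controls and from 2138 to 2250.1 CPM under the combination. HSP70, HSP90 and ClpB genes had 18 and 0 of 26 in those directions (median -0.63). The small heat shock protein LOC102630544 had 0.601, 0.713 and 0.642 CPM in CT-Cleo and 28.4, 28.3 and 29.1 CPM in WS+HL-Cleo, with a log2 difference between the genotypes of -2.16 ± 0.41 (SE, adjusted p = 3.55e-05).

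For most photosystem, plastid ribosomal and chlorophyll synthesis genes the change was the more negative in Cleopatra. For more water channels than not it was the more positive. Photosystem genes had 27 with the more positive change in Carrizo and 0 in Cleopatra of 37 (median -0.71), plastid ribosomal proteins 33 and 0 of 42 (median -0.68) and chlorophyll synthesis 13 and 1 of 20 (median -0.50). The remaining chloroplast lists had no majority. Calvin cycle and photorespiration genes had 9 and 4 of 24, carotenoid synthesis 9 and 3 of 25, chlorophyll breakdown 7 and 5 of 17 and photoprotection 3 and 0 of 8. Mesophyll markers had 14 and 0 of 17. Aquaporins went the other way, with 17 of 31 more positive in Cleopatra and 4 in Carrizo (median 0.73), as did markers of dividing cells, with 36 and 7 of 81 (median 0.53). LEA46-like (LOC102628020) had 1.47, 1.37 and 1.71 CPM in CT-Cleo and 7458, 7302 and 7287 CPM in WS+HL-Cleo, a log2 difference of 3.83 ± 0.54 (SE, adjusted p = 3.97e-07). The LEA list as a whole was divided, with 3 members more positive in Cleopatra and 3 in Carrizo of 22 (median -0.01). NAC72 (LOC102612201) had 51.2, 47.5 and 44.5 CPM and 2804, 3161 and 3008 CPM, for which the difference did not pass the test (log2 difference 0.24 ± 0.10 SE, adjusted p = 0.0577). Reads of both genotypes were counted on a sweet orange annotation, and the part of allele differences in this comparison was not tested.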

How the data were processed

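Poly(A) RNA of citrus leaves was sequenced from stranded Illumina libraries, per the labels' protocols. The submitters' processing notes name FastQC 0.11.7, HISAT2 2.1.0 and StringTie 2.1.3b. The authors deposited 1 table of 30136 genes with a read count, an FPKM value and a TPM value per gene and library, per the file headers, named after a Citrus sinensis Valencia assembly. Counts entered every test, and the deposited FPKM was not used. TPM was used to rank protein-coding genes outside the chloroplast genome by abundance. FPKM and TPM are the authors' values normalised for depth and transcript length. How reads matching several genes were counted is not given in the sources used here.

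Genes with low counts were removed with edgeR's filterByExpr over the 16 groups, leaving 23721, and a single quasi-likelihood model with a mean per group was fitted to all 48 libraries (edgeR 4.0.16 in R 4.3.3, TMM scaling, 32 residual degrees of freedom, biological coefficient of variation 11.2%). P-values were Benjamini-Hochberg adjusted over all tested genes and called below 0.05. Adjusted p-values in the text are from this model, ± after a log2 fold change is its standard error, and CPM are scaled by the TMM library sizes. The code was tested on simulated data. Where all libraries of a group held 0 counts, list medians were also computed with a floor of 3 counts over the group. No value column lacked a sample.

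Genes named are the 12 largest rises and 12 largest falls against CT-Car and the 5 in each direction for the other comparisons, restricted to called genes that average log2 CPM 3 or more, carry a description and (interaction excepted) do not overlap between the groups, and up to 4 called members of each of the 45 lists with the lowest p. Members and lists were chosen with earlier results of these data known. Alternatives were DESeq2 1.42.0 (size factors and Wald test), no filter, a replicate block, a fit to the compared libraries only, the column mark as a term, unmarked or marked libraries alone, omission of ribosomal RNA and chloroplast genome genes, and omission of each replicate in turn.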

Additional observations from a re-analysis of the deposited data

Results flagged for a closer look

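The genes below are noted because their change under combined water stress and high light differed between Cleopatra and Carrizo by the interaction test, as did 9494 genes in all. They are the 5 largest differences in each direction that met the naming rule.

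With the more positive change in Cleopatra, UDP-glycosyltransferase 76B1-like (LOC102606711) went from 0.491, 0.0751 and 0.343 CPM to 363, 381 and 382 CPM there, and from 7.18, 7.29 and 7.77 CPM to 38.4, 34.8 and 34.9 CPM in Carrizo, a log2 difference of 7.98 ± 0.26 (SE, edgeR adjusted p = 2.95e-25). The water channel gene PIP2-2-like (LOC102608729) had 27.5, 26.9 and 31.5 CPM in CT-Cleo and 217, 226 and 213 CPM in WS+HL-Cleo, and fell from 30.5, 28.7 and 30.8 to 2.88, 4.7 and 4.29 CPM in Carrizo, a log2 difference of 5.85 ± 0.14 (SE, adjusted p = 3.90e-30). Caffeic acid 3-O-methyltransferase-like (LOC102619425), phospholipase A1-IIgamma-like (LOC102630712) and monooxygenase 2-like (LOC102622692) differed by log2 5.84 ± 0.28, 5.60 ± 0.14 and 5.42 ± 0.23 (SE). The first of these fell in Carrizo, from 27.1, 44.5 and 25 to 1.96, 2.06 and 1.62 CPM, and had 33.9, 27.1 and 23.1 against 86.9, 104 and 90.8 CPM in Cleopatra.

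With the more positive change in Carrizo, inositol oxygenase 1 (LOC102618274) went from 118, 131 and 124 to 196, 212 and 211 CPM, while in Cleopatra it had 726, 683 and 879 against 25.5, 29 and 28.6 CPM, a log2 difference of -5.51 ± 0.14 (SE, adjusted p = 1.58e-29). Chalcone synthase 2-like (LOC102607309), the entry enzyme of flavonoid synthesis, went from 181, 222 and 224 to 528, 545 and 549 CPM in Carrizo and from 576, 538 and 437 to 59.5, 47.8 and 61 CPM in Cleopatra (log2 difference -4.58 ± 0.24 SE, adjusted p = 3.11e-18). Subtilisin-like protease SBT1.7 (LOC102618027) and a UPF0098 protein (LOC102620461) differed by log2 -4.09 ± 0.13 and -4.03 ± 0.36 (SE). SBT1.7 was lower under stress in both genotypes. It had 171, 175 and 170 against 55.6, 70 and 71.6 CPM in Carrizo. In Cleopatra it had 74.6, 71.4 and 74.7 against 1.56, 1.97 and 1.42 CPM. The UPF0098 gene was higher under stress in both. Its Carrizo controls were near 0, at 0.111, 0.218 and 0.259 against 77, 60.1 and 62.5 CPM. In Cleopatra it had 4.48, 4.04 and 6.81 against 112, 98.2 and 99.6 CPM. The chloroplast small heat shock protein LOC102630008 rose in Carrizo from 31.8, 28.2 and 33.4 to 622, 516 and 551 CPM and stood at 167, 165 and 199.9 against 198, 194 and 192 CPM in Cleopatra (log2 difference -4.04 ± 0.13 SE, adjusted p = 2.89e-26).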

How the results depend on the processing

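The numbers of genes called stayed within 1.5 times of those reported under every alternative run. Against CT-Car they ran from 12580 with marked libraries alone, an alternative chosen after seeing the data, to 14930 with the mark as a term, and from 13855 to 14124 with 1 replicate left out. Leaving out 1 replicate gave 4405 to 5122 against WS-Car, 14109 to 14697 against HL-Car and 8892 to 9624 for the difference between genotypes. The highest number against WS-Car, 7362, came from the compared libraries alone. The lowest against HL-Car came from marked libraries alone, which leave 1 library of WS+HL-Car and 1 of HL-Car. The replicate block gave 14720, 5902, 15093 and 9474 genes for the 4 comparisons. Same-numbered libraries of WS+HL-Car and CT-Car deviated together with r of 0.060, 0.068 and -0.059, and WS+HL-Car replicate 1 correlated better with CT-Car replicate 3 (0.090) than with replicate 1, so the numbers were not taken as pairs.

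Of 274 results for named genes, 272 kept their direction and call under all alternatives run, and none reversed. The exceptions among these 274 are the GDSL genes At5g45910 and At2g42990 against WS-Car, whose values are given with them. Genes singled out after their values were seen, such as those for stress enhanced protein 1 and violaxanthin de-epoxidase, are not among them, and with unmarked libraries alone 1 photoprotection gene was called lower, against 3. The median did not change sign in 38 of the 45 lists, which include lists whose median reached 0, such as wall loosening (-1.63 to 0). Over all lists and alternatives, 493 medians stayed within the standard deviation between the WS+HL-Car libraries and 182 moved farther. Cytosolic ribosomal proteins ranged from 18 to 56 higher and from 13 to 30 lower, and their median from -0.03 to 0.14. The abscisic acid synthesis list ranged from 3 to 6 lower and its median from -0.02 to 0.72, the guard cell list's median from -0.79 to 0.03, and aquaporins and carotenoid genes from 3 to 6 higher. The cause was not tested. Against CT-Car, marked libraries alone compare 2 controls with 1 stressed library, and unmarked libraries alone compare 1 control with 2 stressed libraries. Against HL-Car, marked libraries alone compare 1 library with 1 library. A single library is assumed to vary like the other groups. Depths were similar, so that depth limits mainly genes near 0 counts.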
